A study of Mus musculus with 12 samples.

Results

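Immunoglobulin Fc receptors bind the constant part of antibodies. The 7 genes described here were chosen by name, and all 7 were found among the 40760 genes counted in every library and passed the filter on low counts, which left 17418 genes to test. *Fcgr1* encodes the high-affinity receptor for IgG, *Fcgr3* and *Fcgr4* encode activating IgG receptors, and *Fcgr2b* encodes the inhibitory IgG receptor. *Fcer1g* encodes the common γ chain, the signalling subunit that the activating receptors need. *Fcer1a* encodes the α chain of the high-affinity IgE receptor, and *Fcgrt* encodes the neonatal Fc receptor.

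The libraries were bulk RNA-seq of Pdgfra+ (CD140a+) cells, labelled as mesenchymal, that had been sorted by flow cytometry from the lungs of male mice. There were 12 libraries in 4 groups of 3, *WT* and *Pear1*-/- cells each after vehicle or bleo, where bleo is bleomycin, a drug used to cause lung fibrosis in mice. The *Pear1*-/- mice carried a knockout-first allele in every cell, in which an inserted cassette after exon 6 truncates the transcript. The design asked how bleo changed these cells in each genotype and how the genotypes differed after vehicle and after bleo.

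Activating Fcγ receptors pair with the γ chain, whose tyrosine motif recruits the kinase Syk once IgG complexes cluster the receptors on macrophages, monocytes and other myeloid cells, and phagocytosis and cytokine release follow. FcγRIIb carries an inhibitory motif instead, recruits the phosphatase encoded by *Inpp5d* and sets the threshold for activation. The IgE receptor is best known from mast cells and basophils, where it triggers degranulation, and its α chain has been described as a ligand of PEAR1. The neonatal receptor is related to MHC class I proteins, pairs with β2-microglobulin and returns IgG and albumin from endosomes to the circulation, and unlike the others it is made by many cell types, endothelium and epithelium among them.

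Between 6702948 and 10447101 reads per library were counted on genes, so that the floor of 3 counts lay between 0.287 and 0.448 CPM, the read count scaled to a common library total, which covers counting error only. The labels do not say that libraries of a group came from separate mice, so p-values measure the spread between these libraries, which may be technical. *WT* vehicle replicate 2 stood apart. A chi-square comparison of its counts, scaled so that counting noise alone gives 1, was 25.2 and 26 against the other *WT* vehicle libraries but between 1.81 and 2.92 against the *Pear1*-/- vehicle libraries. Its counts thus go against its label, and whether the label is wrong was not tested. Means of *WT* vehicle include this library, and values without it are given beside the main results that rest on it. The same comparison gave 1.68 between *WT* vehicle replicates 1 and 3 and 1.48 to 5.46 within *Pear1*-/- vehicle. Within each bleo group it gave 1.37 to 1.51, little above counting noise. Small p-values thus rest on a narrow spread between libraries and do not speak for a spread between mice. *Pear1* itself had 576, 545 and 519 normalized counts in *WT* vehicle against 511, 501 and 547 in the libraries labelled *Pear1*-/- vehicle, and 256, 239 and 266 in *WT* bleo against 355, 372 and 344 in those labelled *Pear1*-/- bleo. After vehicle the difference did not pass the test (log2 fold change -0.08, edgeR adjusted p = 0.47), and after bleo *Pear1* was higher in the libraries labelled *Pear1*-/- (log2 fold change 0.48, edgeR adjusted p = 0.00012). These counts over the whole gene showed no loss of *Pear1* in the libraries labelled *Pear1*-/-. They do not bear out the genotype, and the reason was not tested. *WT* and *Pear1*-/- name the labels of the libraries throughout.

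*Ptprc*, which encodes the leukocyte antigen CD45, was present in all 12 libraries, with between 3010 and 7727 normalized counts, beside *Pdgfra* with between 1338 and 4802. The libraries thus held leukocyte transcripts although the label is mesenchymal. In bulk samples fewer cells of a type and less RNA per cell cannot be told apart, and this holds for every level below.

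In *WT* cells bleo raised the Fcγ receptors and the γ chain between 6.59 and 20.8 times, and *Fcer1a* 2.12 times, while *Fcgrt* stayed within its spread. In *Pear1*-/- cells the Fcγ receptors and the γ chain rose between 1.35 and 10.5 times, *Fcer1a* did not pass the test and *Fcgrt* fell. After bleo all 7 genes were lower in *Pear1*-/- than in *WT* cells, *Fcgr4* most and *Fcgrt* least. A gene is called where the Benjamini-Hochberg adjusted p of edgeR's quasi-likelihood test, taken over the 17418 genes tested, is under 0.05. Log2 fold changes come from that fit and carry their standard error (SE).

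**Figure D1:**
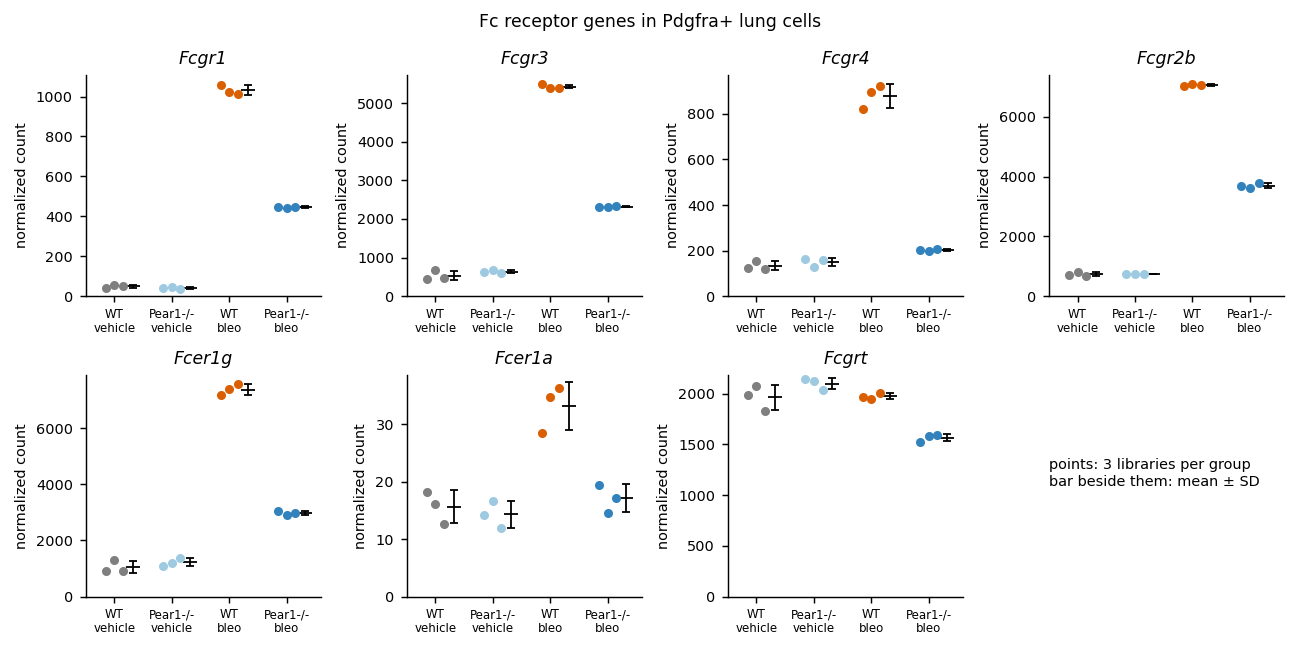
Normalized counts (y axis, linear, from 0) of the 7 Fc receptor genes in the 4 groups (x axis). Points are the 3 libraries of a group and the bar beside them is the mean ± SD. The *WT* bleo libraries sit above all others for every gene but *Fcgrt*, and for *Fcgrt* the *Pear1*-/- bleo libraries, at 1528 to 1593, sit below all others.

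With bleo in *WT* cells 6 of the 7 were called higher and 0 lower, where 31.4% of all genes tested were called higher and 36.6% lower. The median log2 fold change of the 7 was 2.83, against -0.07 over all genes tested. In *Pear1*-/- cells 5 were higher and 1 lower, where 28.9% and 33.4% of all genes were, with a median of 1.28 against -0.05. Between *Pear1*-/- bleo and *WT* bleo 0 were higher and 7 lower, where 22.1% and 23.9% of all genes were, with a median of -1.22 against -0.01. The bleo effect itself was lower in *Pear1*-/- than in *WT* cells for 6 of the 7 by the interaction term, in which 17.9% of all genes were called higher and 19.1% lower. The comparisons share groups of libraries, so their counts are not independent of each other. Without *WT* vehicle replicate 2 the log2 fold change with bleo in *WT* was 4.54 for *Fcgr1*, 3.6 for *Fcgr3*, 2.92 for *Fcgr4*, 3.42 for *Fcgr2b*, 3.08 for *Fcer1g* and 1.18 for *Fcer1a*, each still called higher.

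**Figure D2:**
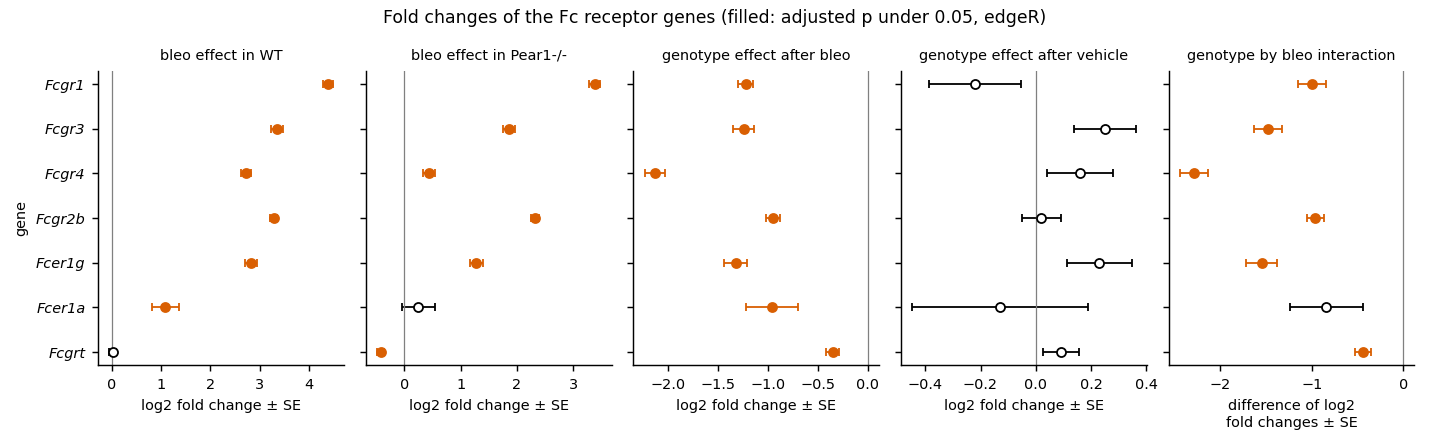
Log2 fold changes ± SE (x axes, each with its own scale) of the 7 genes (y axis) in 4 comparisons, and the difference between the 2 bleo effects at the right. Filled points have an adjusted p under 0.05. All 7 points lie left of 0 after bleo, from -2.13 for *Fcgr4* to -0.35 for *Fcgrt*, and none is filled in the vehicle comparison.

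*Fcgr1* (ENSMUSG00000015947), on the minus strand of chromosome 3 at 96282909 to 96293969 (GRCm38), was the member with the largest fold change in both genotypes. It had 41.2, 55.8 and 51.5 normalized counts with vehicle and 1059, 1024 and 1012 with bleo in *WT* cells, and 41.7, 48.2 and 38.2 with vehicle and 449, 443 and 448 with bleo in *Pear1*-/- cells. The vehicle groups overlapped, and every bleo library stood far above them, those of *WT* more than those of *Pear1*-/-. The log2 fold change with bleo was 4.38 in *WT* (SE 0.0993, edgeR adjusted p = 2.77e-14) and 3.38 in *Pear1*-/- (SE 0.102, edgeR adjusted p = 9.78e-13). Between the bleo groups it was -1.22 (SE 0.0755, edgeR adjusted p = 6.27e-09), with a *WT* mean of 1031.7 ± 24.3 (SD, n = 3) and a *Pear1*-/- mean of 447 ± 3.5, which is 0.433 times as much.

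*Fcgr3* (ENSMUSG00000059498; chromosome 1, 171051174 to 171064935, minus strand), the low-affinity activating receptor, was the most abundant of the 4 IgG receptor chains per length in every group. Its normalized counts were 458, 668 and 484 with vehicle and 5487, 5401 and 5399 with bleo in *WT* cells, and 634, 691 and 595 with vehicle and 2321, 2318 and 2331 with bleo in *Pear1*-/- cells. Replicate 2 was the highest *WT* vehicle library and lay among those of *Pear1*-/-. The log2 fold change was 3.35 with bleo in *WT* (SE 0.116, edgeR adjusted p = 2.27e-12), 1.86 in *Pear1*-/- (SE 0.11, edgeR adjusted p = 1.57e-09) and -1.24 between the bleo groups (SE 0.106, edgeR adjusted p = 2.06e-07).

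*Fcgr4* (ENSMUSG00000059089; chromosome 1, 171018920 to 171029761, plus strand), an activating receptor for IgG2 subclasses on monocytes, macrophages and neutrophils, was the member in which the genotypes differed most. Normalized counts were 122, 156 and 121 with vehicle and 820, 895 and 921 with bleo in *WT* cells, and 164, 129 and 159 with vehicle and 202, 199 and 209 with bleo in *Pear1*-/- cells. In *Pear1*-/- cells the bleo libraries lay only just above the vehicle libraries, without overlap, while in *WT* cells they lay far above. The mean rose from 133 ± 19.8 to 879 ± 52.5 (SD, n = 3) in *WT*, a log2 fold change of 2.72 (SE 0.107, edgeR adjusted p = 8.94e-12), and from 151 ± 19 to 203 ± 5.23 in *Pear1*-/-, a log2 fold change of 0.44 (SE 0.111, edgeR adjusted p = 0.00312). The latter call rested on *Pear1*-/- vehicle replicate 2, the lowest of its group, without which the log2 fold change was 0.31 and the edgeR adjusted p = 0.0518. Between the bleo groups the log2 fold change was -2.13 (SE 0.0997, edgeR adjusted p = 3.67e-10), and the *Pear1*-/- mean was 0.231 times that of *WT*.

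*Fcgr2b* (ENSMUSG00000026656; chromosome 1, 170958617 to 170976547, minus strand), the inhibitory receptor, was second to *Fcgr3* among the IgG receptor chains per length in both bleo groups. Normalized counts were 720, 802 and 670 with vehicle and 7030, 7092 and 7056 with bleo in *WT* cells, and 759, 733 and 737 with vehicle and 3683, 3616 and 3799 with bleo in *Pear1*-/- cells. Bleo libraries of both genotypes stood apart from the vehicle libraries and from each other. The log2 fold change was 3.28 with bleo in *WT* (SE 0.074, edgeR adjusted p = 2.77e-14), 2.32 in *Pear1*-/- (SE 0.0713, edgeR adjusted p = 1.2e-12) and -0.95 between the bleo groups (SE 0.0676, edgeR adjusted p = 2.84e-08). *Fcgr2b* kept a larger part of its *WT* bleo level in *Pear1*-/- cells than *Fcgr1*, *Fcgr3* or *Fcgr4*, at 0.524 times.

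*Fcer1g* (ENSMUSG00000058715; chromosome 1, 171229572 to 171234365, minus strand), the γ chain, had the highest level per length of the 7 genes in all 4 groups. Its normalized counts were 916, 1304 and 919 with vehicle and 7189, 7389 and 7570 with bleo in *WT* cells, and 1095, 1211 and 1389 with vehicle and 3045, 2917 and 2967 with bleo in *Pear1*-/- cells. As for *Fcgr3*, *WT* vehicle replicate 2 was the highest of its group and lay within the *Pear1*-/- vehicle range. The log2 fold change was 2.83 with bleo in *WT* (SE 0.123, edgeR adjusted p = 2.98e-11), 1.28 in *Pear1*-/- (SE 0.117, edgeR adjusted p = 2.33e-07) and -1.32 between the bleo groups (SE 0.116, edgeR adjusted p = 2.62e-07).

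*Fcer1a* (ENSMUSG00000005339; chromosome 1, 173221284 to 173227214, minus strand), the IgE-binding chain, was the scarcest member, with between 11 and 36 reads per library. Normalized counts were 18.2, 16.2 and 12.6 with vehicle and 28.5, 34.7 and 36.4 with bleo in *WT* cells, and 14.2, 16.7 and 12 with vehicle and 19.5, 14.6 and 17.2 with bleo in *Pear1*-/- cells. Only the *WT* bleo libraries stood above the other 9. The log2 fold change was 1.09 with bleo in *WT* (SE 0.272, edgeR adjusted p = 0.00239), 0.25 in *Pear1*-/- (SE 0.287, edgeR adjusted p = 0.46) and -0.96 between the bleo groups (SE 0.26, edgeR adjusted p = 0.00686). That the bleo effect differed between genotypes was not shown for *Fcer1a*, with a difference of -0.84 (SE 0.397, edgeR adjusted p = 0.114).

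*Fcgrt* (ENSMUSG00000003420; chromosome 7, 45092990 to 45103851, minus strand), the neonatal receptor, had the smallest fold change of the 7 with bleo in *WT* cells and between the bleo groups. Normalized counts were 1983, 2080 and 1829 with vehicle and 1967, 1949 and 2010 with bleo in *WT* cells, and 2141, 2123 and 2039 with vehicle and 1528, 1580 and 1593 with bleo in *Pear1*-/- cells. The first 3 groups overlapped with at least 1 of the others, and the *Pear1*-/- bleo libraries lay below all. The log2 fold change with bleo in *WT* was 0.02 (SE 0.0654, edgeR adjusted p = 0.801), and without *WT* vehicle replicate 2 it was 0.13 (edgeR adjusted p = 0.0389), with which 7 of the 7 members were called higher where 31.7% of all genes were. Bleo in *Pear1*-/- cells changed it, and it fell by 0.42 on the log2 scale (SE 0.0655, edgeR adjusted p = 5.63e-05), and it was -0.35 between the bleo groups (SE 0.0655, edgeR adjusted p = 0.000479). *B2m*, which encodes the chain that *Fcgrt* pairs with, had a log2 fold change of 0.92 with bleo in *WT* (edgeR adjusted p = 3.32e-07), -0.02 in *Pear1*-/- (edgeR adjusted p = 0.875) and -0.65 between the bleo groups (edgeR adjusted p = 2.7e-05). Of the 7 endothelial markers, cells that carry *Fcgrt*, 6 fell with bleo in each genotype, and they summed to 200 to 211 CPM in *WT* bleo and 215 to 230 in *Pear1*-/- bleo. Of the 7 epithelial markers 2 were higher and 5 lower with bleo in *WT*, 1 was higher and 6 lower in *Pear1*-/-, and 1 was higher and 4 lower in *Pear1*-/- bleo than in *WT* bleo. Their sum was 1600 to 1630 CPM in *WT* bleo and 715 to 724 in *Pear1*-/- bleo, lower in the group in which *Fcgrt* was lower, led by the surfactant gene *Sftpc* at -2.0. The part of these cells in the level of *Fcgrt* was not tested.

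The interaction term, which is the bleo effect in *Pear1*-/- minus that in *WT*, was -2.29 for *Fcgr4* (SE 0.154, edgeR adjusted p = 6.33e-08), the largest in size of the 7. It was -1.55 for *Fcer1g* (SE 0.165), -1.48 for *Fcgr3* (SE 0.153), -1.0 for *Fcgr1* (SE 0.155), -0.96 for *Fcgr2b* (SE 0.0971) and -0.44 for *Fcgrt* (SE 0.0925), with edgeR adjusted p between 2.8e-06 and 0.00182. Without *WT* vehicle replicate 2 the same 6 genes were called lower, with values from -2.51 for *Fcgr4* to -0.57 for *Fcgrt*, where 26.0% of all genes were called lower.

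After vehicle no member was called, where 0.855% of all genes tested were called higher in *Pear1*-/- and 3.65% lower. By edgeR's test 1 of the 7, *Fcgr3*, had an unadjusted p under 0.05. DESeq2 and limma on the same counts called 0 as well, and edgeR without the filter on low counts called 2, *Fcgr3* and *Fcer1g*, both higher in *Pear1*-/- vehicle. Without *WT* vehicle replicate 2, the library that stood apart, 5 of the 7 were called higher in *Pear1*-/- vehicle, where 25.5% of all genes were. The log2 fold changes were then 0.51 for *Fcgr3* (edgeR adjusted p = 1.48e-07), 0.49 for *Fcer1g* (edgeR adjusted p = 2.2e-07), 0.37 for *Fcgr4* (edgeR adjusted p = 0.0143), 0.21 for *Fcgrt* (edgeR adjusted p = 0.0019) and 0.16 for *Fcgr2b* (edgeR adjusted p = 0.0268). *Fcgr1*, at -0.05, and *Fcer1a*, at -0.02, were not called. Also without it, all 8 leukocyte genes and all 9 neutrophil markers were called higher in *Pear1*-/- vehicle, and of the 13 macrophage markers 3 were higher and 3 lower. The vehicle comparison thus turned on whether that library was left in.

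Levels of different genes can be set side by side only per length, here as RPKM, the CPM per kilobase of exon, with exon lengths of GENCODE M21. In *WT* vehicle the order was *Fcer1g* (140), *Fcgrt* (110), *Fcgr3* (36.2), *Fcgr2b* (14.9), *Fcgr4* (12.5), *Fcgr1* (2.25) and *Fcer1a* (1.86 RPKM), and only the last pair overlapped between libraries. In *WT* bleo it was *Fcer1g* (949), *Fcgr3* (351), *Fcgr2b* (137), *Fcgrt* (106), *Fcgr4* (78.6), *Fcgr1* (44.8) and *Fcer1a* (3.74 RPKM), with no overlap between neighbours. Without replicate 2 the *WT* vehicle levels were 130 RPKM for *Fcer1g*, 112 for *Fcgrt* and 33.6 for *Fcgr3*. *Fcgrt*, second in both vehicle groups, was thus passed by *Fcgr3* and *Fcgr2b* in *WT* bleo without a change of its own that passed the test. *Fcgrt* (83.3 RPKM) lay between *Fcgr3* (149) and *Fcgr2b* (71.4) in *Pear1*-/- bleo, and *Fcgr1* (19.3) stood just above *Fcgr4* (18.0). *Fcgr2b* (13.7) and *Fcgr4* (12.8 RPKM) overlapped in *Pear1*-/- vehicle, as did *Fcgr1* (1.77) and *Fcer1a* (1.53 RPKM).

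The summed RPKM of the 4 IgG receptor chains went from 65.8 ± 5.69 (SD, n = 3) to 612 ± 1.46 with bleo in *WT* cells and from 67.8 ± 3.0 to 258 ± 2.88 in *Pear1*-/- cells. *Fcgr3* made up more than any other chain throughout, with 54.9% and 57.4% of the sum in *WT* cells and 58.2% and 57.9% in *Pear1*-/- cells, vehicle first. *Fcgr4* fell in share from 19% ± 0.421 in *WT* vehicle and 19% ± 2.68 in *Pear1*-/- vehicle to 12.9% ± 0.75 in *WT* bleo and 6.99% ± 0.106 in *Pear1*-/- bleo. *Fcgr1* went from 3.43% and 2.6% in the vehicle groups to 7.32% and 7.46% in the bleo groups. The inhibitory *Fcgr2b* held 22.7% ± 2.05 and 22.4% ± 0.0912 in *WT* cells and 20.3% ± 0.617 and 27.6% ± 0.396 in *Pear1*-/- cells, vehicle first, so its *Pear1*-/- bleo libraries lay above all others. Without replicate 2 the *WT* vehicle sum was 62.6 RPKM and the shares were 53.6% for *Fcgr3*, 19.2% for *Fcgr4*, 3.53% for *Fcgr1* and 23.7% for *Fcgr2b*.

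**Figure D3:**
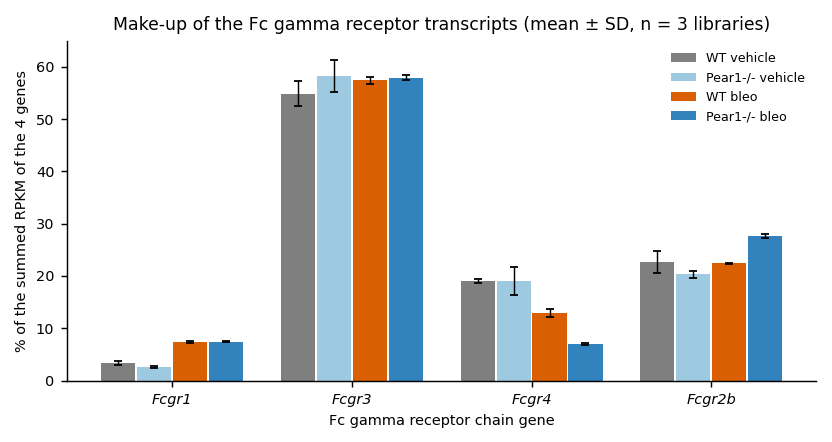
Share of each IgG receptor chain in the summed RPKM of the 4 chains (y axis, percent, from 0), for each gene (x axis) and group. Bars are means of 3 libraries and error bars the SD. The *Fcgr4* bars drop from 19% in both vehicle groups to 6.99% in *Pear1*-/- bleo, where the *Fcgr2b* bar is highest at 27.6%.

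Ratios of 2 counts within a library do not depend on the normalization between libraries. They are not corrected for length, and *Fcgr2b* has 5790 exonic bases against 1256 to 2589 for the activating chains. A log2 ratio near 0 thus does not mean equal levels, and only differences between groups are read. The log2 ratio of the activating chains (*Fcgr1*, *Fcgr3* and *Fcgr4* summed) to *Fcgr2b* was 0.07, 0.05 and 0.06 in *WT* bleo and -0.31, -0.29 and -0.35 in *Pear1*-/- bleo. The bleo groups stood apart, with means of 0.06 and -0.32 and a difference of -0.37. In *WT* vehicle it was -0.21, 0.13 and -0.03, and in *Pear1*-/- vehicle 0.15, 0.24 and 0.11, which overlapped. The change with bleo was -0.48 in *Pear1*-/-, without overlap, and 0.09 in *WT*, within the spread. The latter value depended on single libraries, with 0.003 without *WT* vehicle replicate 1 and 0.176 without replicate 2. With 3 libraries against 3 the two-sided exact permutation test cannot go below p = 0.1, which is what it gave where groups stood apart. Over the 56 ratio comparisons made, the adjusted p of the exact tests was 0.151 at the least.

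Relative to the γ chain, the log2 ratio of *Fcgr4* to *Fcer1g* was -3.13, -3.04 and -3.04 in *WT* bleo and -3.92, -3.88 and -3.83 in *Pear1*-/- bleo, a difference of -0.80 without overlap. The difference between the bleo groups was thus larger for *Fcgr4* than for its signalling subunit. The ratio of *Fcgr2b* to *Fcer1g* moved the other way, by 0.38, also without overlap. For *Fcgr3* the ratio differed by 0.09 with overlap, and for *Fcgr1* by 0.10 without it. In *WT* cells bleo shifted the ratio of *Fcgr1* to *Fcer1g* by 1.55 and that of *Fcgr3* by 0.52, while that of *Fcgr4*, at -0.11, overlapped. With *WT* vehicle replicate 2 left out the shift was 1.476 for *Fcgr1*, 0.52 for *Fcgr3* and -0.16 for *Fcgr4*.

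Relative to *Ptprc*, the ratios of *Fcgr1* and *Fcgr3* in the bleo groups differed by -0.03 and -0.05 and overlapped. *Fcer1g* differed by -0.13 and *Fcgr4* by -0.93, and *Fcgr2b* was higher in *Pear1*-/- bleo by 0.25 and *Fcgrt* by 0.84, each without overlap. With the sum of 8 leukocyte genes in place of *Ptprc* the differences were -0.292 for *Fcgr1*, -0.309 for *Fcgr3*, -0.395 for *Fcer1g*, -1.198 for *Fcgr4*, 0.581 for *Fcgrt* and -0.017 for *Fcgr2b*, which changed sign. *Fcgr4* was lowest against both references. With bleo all 4 IgG receptor chains were higher relative to *Ptprc* in both genotypes without overlap, by between 0.62 and 3.57 on the log2 scale. The 0.62 was *Fcgr4* in *Pear1*-/-, which was 0.073 against the sum of 8.

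**Figure D4:**
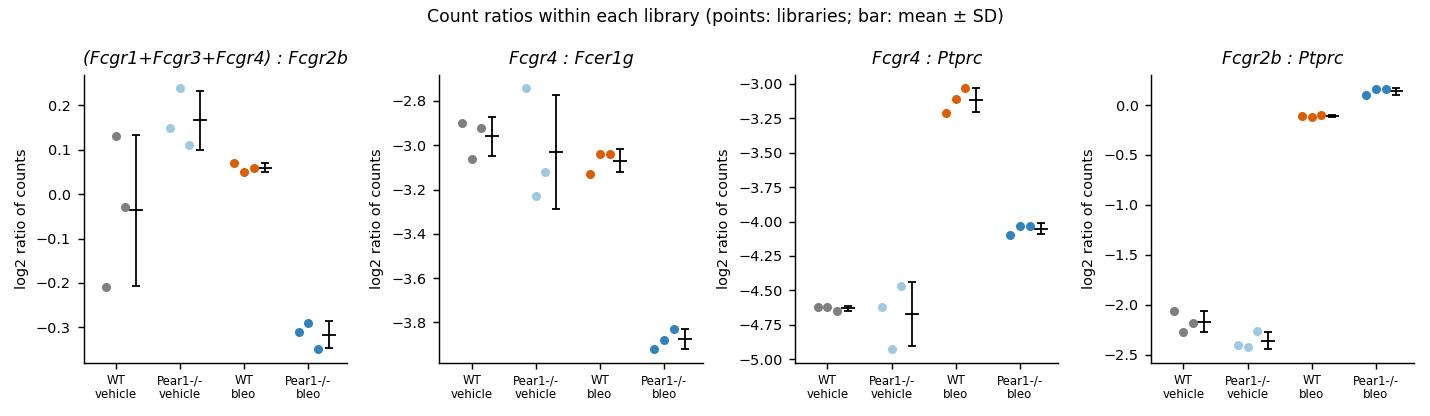
Log2 ratios of counts within each library (y axes, each with its own scale) in the 4 groups (x axis). Points are libraries and the bar is the mean ± SD. In the 2 panels for *Fcgr4* the *Pear1*-/- bleo libraries lie below those of *WT* bleo without overlap, as they do for the activating chains over *Fcgr2b*, and for *Fcgr2b* over *Ptprc* they lie above.

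Macrophage markers moved with these receptors and leukocyte markers did so in part, while monocyte and alveolar macrophage markers moved in both directions. All 13 macrophage markers were higher with bleo in both genotypes and lower in *Pear1*-/- bleo than in *WT* bleo, where their median log2 fold change was -1.23 beside -1.22 for the 7 Fc receptor genes. Their summed level went from between 2400 and 2540 CPM with vehicle to between 18800 and 18900 with bleo in *WT* cells and from 2460 to 2580 up to 7570 to 7750 in *Pear1*-/- cells, with no marker at 0. The 8 leukocyte genes summed to 1590 to 1940 CPM with vehicle and 4920 to 5040 with bleo in *WT*, and to 1910 to 1970 and 2590 to 2630 in *Pear1*-/-, and 7 of 8 were lower in *Pear1*-/- bleo than in *WT* bleo. With bleo all 8 were called higher in *WT* but 5 in *Pear1*-/-. There *Ptprc*, at -0.18, *Cd53*, at -0.02, and *Ptprcap*, at -0.27, were not called. Of the 8 monocyte markers 4 were higher and 2 lower with bleo in *WT*, and 3 were higher and 4 lower in *Pear1*-/- bleo than in *WT* bleo. Of the 8 alveolar macrophage markers 4 were higher and 2 lower with bleo in *WT*, and 1 was higher and 5 lower in *Pear1*-/- bleo than in *WT* bleo. Their sum went the other way, with 581 to 614 CPM in *WT* bleo and 685 to 698 in *Pear1*-/- bleo, through *Chil3*, the one higher. The part of these cells in the Fc receptor differences was not tested.

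Other marker lists followed the IgG receptors in some comparisons and not in others. Of the 9 neutrophil markers 7 fell with bleo in *WT*, and in *Pear1*-/- 8 were called lower and *Mmp8* higher, at 0.73, with 7 to 8 called lower when 1 library was left out. The call of *Mmp8* was lost without any 1 of these libraries but *Pear1*-/- bleo replicate 3 (edgeR adjusted p between 0.0501 and 0.0862). Between the bleo groups *Mmp8*, at 1.31, and *S100a8*, at 0.90, were called higher in *Pear1*-/- and 0 lower, while *Fcgr4* was lower. The call of *S100a8* was lost whichever bleo library was left out (edgeR adjusted p between 0.0736 and 0.12), and that of *Mmp8* was not. The sum of the neutrophil markers was 619 to 1760 CPM with vehicle and 187 to 200 with bleo in *WT*, and 1650 to 2010 and 288 to 297 in *Pear1*-/-, the 1760 being *WT* vehicle replicate 2. Of 7 NK cell markers all fell with bleo in both genotypes, and 5 were lower in *Pear1*-/- bleo than in *WT* bleo. Of the 7 T cell markers 1 was higher and 5 lower with bleo in *WT*, and 6 were lower in *Pear1*-/- bleo than in *WT* bleo. Of the 7 B cell markers, cells that carry *Fcgr2b* as their main IgG receptor, 6 were higher with bleo in *WT*, 6 lower with bleo in *Pear1*-/- and 6 lower in *Pear1*-/- bleo than in *WT* bleo. Their sum was 798 to 809 CPM in *WT* bleo, above the 526 to 549 of *Pear1*-/- bleo and the 504 to 761 of the vehicle libraries, but *Cd79a*, the most abundant of them, was not called with bleo in *WT* or between the bleo groups. Of the 7 plasma cell markers, cells that secrete antibodies, 5 were higher in *Pear1*-/- bleo than in *WT* bleo, and they summed to 1210 to 1290 CPM in *WT* bleo and 8290 to 8570 in *Pear1*-/- bleo. With vehicle the sum was higher than in either bleo group, at 10100 to 16200 CPM in *WT* and 15100 to 18700 in *Pear1*-/-. Most of it was *Jchain*, which was at -3.5 with bleo in *WT* and at -1.12 in *Pear1*-/-. The 9 fibroblast markers summed to 14100 to 14200 CPM in *WT* bleo and 35800 to 36700 in *Pear1*-/- bleo, where 6 were higher and 0 lower. Most of this sum came from the matrix genes *Col1a1*, *Col1a2*, *Col3a1* and *Fn1*. *Col1a1* was the largest part, with mean normalized counts of 42500 in *WT* bleo and 142000 in *Pear1*-/- bleo. *Tcf21*, *Inmt*, at 0.12, and *Dcn*, at 0.13, were not called between the bleo groups. With bleo in *WT* but without vehicle replicate 2 of that genotype, 2 neutrophil markers were higher and 7 lower, 1 T cell marker was higher and 3 lower, and all 7 B cell markers were higher.

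For the IgE receptor the summed levels of the cells best known to carry it were lower with bleo, largely through *Hdc*, a gene that both lists share. Of the 8 mast cell markers tested 6 fell with bleo in *WT* and 0 rose, while *Fcer1a* rose, and *Tpsab1*, a mast cell tryptase, was at 0 in *WT* bleo. The summed level of the 9 mast cell markers was 295 to 409 CPM in *WT* vehicle, where most of it came from *Hdc*, which is not confined to mast cells, and 116 to 126 in *WT* bleo. Basophil markers summed to 248 to 374 CPM in *WT* vehicle and 89.3 to 99 in *WT* bleo, with 4 of 7 lower, and most of this sum too was *Hdc*. The basophil protease *Mcpt8*, at -0.05, *Il4*, at -0.17, and *Cd200r3*, at 0.52, were not called with bleo in *WT*. *Ms4a2*, the β chain of the IgE receptor, stood at 27.6 ± 5.26 normalized counts (SD, n = 3) in *WT* bleo against 7.8 ± 4.18 in *Pear1*-/- bleo, a log2 difference of -1.82 (SE 0.452, edgeR adjusted p = 0.00402), in the same direction as *Fcer1a*. After vehicle it was at -1.31 (edgeR adjusted p = 0.0752), and at -1.55 without *WT* vehicle replicate 2 (edgeR adjusted p = 0.000506), while *Fcer1a* was at -0.13 and -0.02. Its bleo effect in *WT* was 0.09 (edgeR adjusted p = 0.846). Of 8 dendritic cell markers 3 were higher and 2 lower with bleo in *WT*, and 0 were higher and 6 lower in *Pear1*-/- bleo than in *WT* bleo, the direction of the Fc receptor genes. With bleo in *Pear1*-/- 2 of them were higher and 6 lower, while the IgG receptor chains rose.

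**Figure D5:**
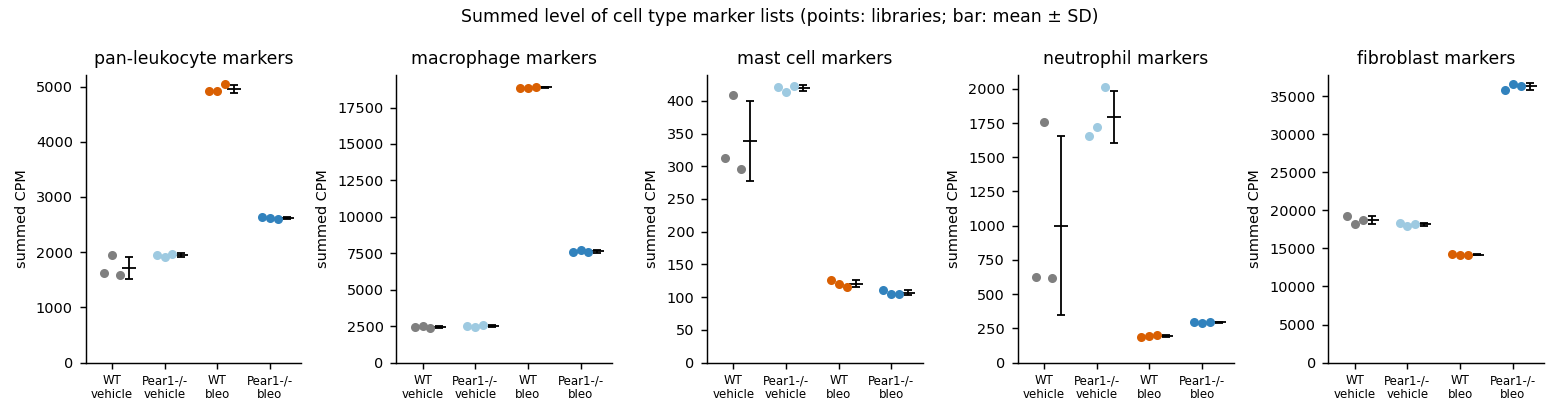
Summed CPM (y axes, linear, from 0) of 5 cell type marker lists in the 4 groups (x axis). Points are libraries and the bar is the mean ± SD. Leukocyte and macrophage sums are highest in *WT* bleo, at 4920 to 5040 and 18800 to 18900, as for the IgG receptors, while mast cell and neutrophil sums are lower in both bleo groups than in both vehicle groups.

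Of 15 further Fc receptor subunits and assembly partners, 13 were tested. Over all genes tested, 31.4% were called higher and 36.6% lower with bleo in *WT*, and 28.9% and 33.4% in *Pear1*-/-. Between the bleo groups 22.1% were called higher and 23.9% lower. The counts of this list and of the lists that follow stand beside these shares. With bleo in *WT* 6 were higher and 3 lower, led by *Fcrlb*, an Fc receptor-like gene, at a log2 fold change of 3.09, and *Tyrobp*, the adaptor DAP12 that resembles the γ chain, at 2.55, and at the other end *Pigr*, the polymeric immunoglobulin receptor, at -1.76 and *Ahsg* at -1.56. Bleo in *Pear1*-/- cells left 3 higher and 6 lower, with *Fcrlb* at 4.73, *Trim21*, the cytosolic antibody receptor, at 2.39, *Pigr* at -3.24 and *Cd247*, the ζ chain, at -2.01. Between the bleo groups 1 was higher, *Trim21* at 1.07, and 7 were lower in *Pear1*-/-, led by *Ms4a2* and by *Fcer2a*, the low-affinity IgE receptor CD23, at -1.77. The call of *Trim21* was lost without *WT* bleo replicate 1, *WT* bleo replicate 2 or *Pear1*-/- bleo replicate 1 (edgeR adjusted p between 0.0695 and 0.128). With bleo *Fcer2a* was at 1.18 in *WT* cells and at -0.71 in *Pear1*-/- cells, both called.

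Of 23 genes that carry the activating signal onward, 20 were higher and 3 lower with bleo in *WT*, 12 higher and 6 lower in *Pear1*-/-, and 1 higher and 19 lower in *Pear1*-/- bleo than in *WT* bleo. The median log2 fold changes were 1.24, 0.22 and -0.88. With bleo in *WT* the adaptor *Grb2* was at 2.29, while the adaptor *Lat* was at -0.80. With bleo in *Pear1*-/- cells the kinase *Fgr* was at 1.25 and the adaptor *Sh3bp2* at 1.08, and *Lat* was at -1.55. Between the bleo groups *Grb2* was at -1.59 and the exchange factor *Vav3* at -1.23, and *Plcg1*, a phospholipase, at 0.29 was the gene called higher, a call lost without *WT* bleo replicate 1, *WT* bleo replicate 3 or *Pear1*-/- bleo replicate 1 (edgeR adjusted p between 0.055 and 0.101). After vehicle *Fgr* was called higher at 0.39 (edgeR adjusted p = 0.0467) and *Vav2* lower at -0.42 (edgeR adjusted p = 0.0405). When *WT* vehicle replicate 2 was left out they were at 0.59 and -0.43, both called, with 14 of the 23 called higher, where 25.5% of all genes were. Neither was called when any other vehicle library was left out (edgeR adjusted p between 0.104 and 0.223).

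Of 16 inhibitory phosphatases, adaptors and receptors, 14 were higher and 1 lower with bleo in each genotype, and 2 were higher and 11 lower in *Pear1*-/- bleo than in *WT* bleo. The medians were 1.55 in *WT*, 0.82 in *Pear1*-/- and -0.70 between the bleo groups. *Pirb*, an inhibitory receptor of myeloid cells, was at 2.46 and *Sirpa*, the receptor for CD47, at 2.42 with bleo in *WT*, and the ubiquitin ligase *Cblb* was the gene that fell, at -0.58. *Dok2*, an adaptor, was at 1.51, *Sirpa* at 1.48 and *Cblb* at -0.78 in *Pear1*-/- cells. *Pirb*, at -1.92, and *Sirpa*, at -1.05, were lowest between the bleo groups, and the phosphatase genes *Inppl1* at 0.63 and *Ptpn11* at 0.36 were higher.

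Of 22 genes of the phagocytic machinery, 20 were higher and 0 lower with bleo in *WT*, 14 higher and 3 lower in *Pear1*-/-, and 0 higher and 18 lower in *Pear1*-/- bleo than in *WT* bleo, with medians of 1.03, 0.48 and -0.52. The NADPH oxidase genes *Ncf1*, at 2.43, and *Cybb*, at 2.30, led with bleo in *WT*. In *Pear1*-/- cells the actin regulator *Arpc1b* was highest at 1.24, and lowest were *Fmnl1*, a formin, at -0.48 and *Dock2*, an exchange factor for Rac, at -0.43. *Cybb*, at -1.49, and *Fmnl1*, at -1.07, were lowest between the bleo groups. After vehicle 1 was called, *Was*, higher at 0.36 (edgeR adjusted p = 0.045). Leaving out *WT* vehicle replicate 2 put it at 0.56 and 18 of the 22 were called higher, where 25.5% of all genes were. The call was lost when any other vehicle library was left out (edgeR adjusted p between 0.104 and 0.224).

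The genes closest in pattern to each member were found from the root mean square difference of centred log2 CPM over the 12 libraries, among 10448 genes. They were *C1qa*, *Ms4a6d* and *Clec4n* for *Fcgr1*, at 0.290, 0.291 and 0.292. For *Fcgr3* they were *Scimp* at 0.161, *Mrc1* at 0.169 and *Ms4a6c* at 0.177, and for *Fcgr4* they were *Pirb* at 0.123, *Ier5* at 0.130 and *Fyb* at 0.178. For *Fcgr2b* they were *Cotl1* at 0.111, *Lpl* at 0.112 and *Ifi30* at 0.134, and for *Fcer1g* they were *Lyz2* at 0.102, *Cysltr1* at 0.108 and *Arrb2* at 0.140. No gene was nearest to more than 1 member. For *Fcer1a* they were *Rap2a*, *Fam117b* and *Hps4*, at 0.144 to 0.157, and for *Fcgrt* they were *Tapbp*, which encodes tapasin of the MHC class I loading complex, *Spty2d1* and *Ubald1*, at 0.0557 to 0.0645. Among the members the closest pair was *Fcgr3* and *Fcgr2b*, at 0.188, and the farthest was *Fcgr1* and *Fcgrt*, at 2.05. The points share libraries, so these values are descriptions. Without *WT* vehicle replicate 2, *Ms4a6d*, *Arrb2* and *Hps4* were no longer among the 3 nearest of their members, and the other 18 genes were.

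Of the 5 members on chromosome 1, *Fcgr2b*, *Fcgr4*, *Fcgr3* and *Fcer1g* lie within 276 kb. The sequences before the transcription starts of the 3 activating chains are shown because each holds the box described here. *Fcgr2b* and *Fcer1g*, which were also higher with bleo in both genotypes, did not hold it, and their sequences are not shown. Each is the 150 bases before the RefSeq start (GRCm38.p6), 5′ to 3′ on the gene's strand, at chr3:96293970-96294119 for *Fcgr1*, chr1:171059404-171059553 for *Fcgr3* and chr1:171018776-171018925 for *Fcgr4*. Capitals mark TTCCTC, the box bound by the myeloid factor PU.1 (searched as GAGGAA on both strands).
Fcgr1: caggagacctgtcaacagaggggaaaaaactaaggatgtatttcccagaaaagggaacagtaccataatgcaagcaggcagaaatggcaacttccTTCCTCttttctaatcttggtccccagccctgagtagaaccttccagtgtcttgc
Fcgr3: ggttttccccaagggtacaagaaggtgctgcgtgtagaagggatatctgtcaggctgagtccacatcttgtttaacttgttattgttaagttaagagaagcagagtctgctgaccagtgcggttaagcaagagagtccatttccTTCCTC
Fcgr4: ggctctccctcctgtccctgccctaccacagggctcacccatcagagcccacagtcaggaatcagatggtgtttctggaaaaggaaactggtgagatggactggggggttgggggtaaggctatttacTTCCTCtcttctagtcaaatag
The PU.1 box stood at -55 to -50 in *Fcgr1*, at -6 to -1 in *Fcgr3* and at -22 to -17 in *Fcgr4*, with -1 as the base before the start. In the 250 bases before the start, 4 of the 7 members held it, the fourth being *Fcer1a* at -216 to -211. So did 6986 of 27025 RefSeq genes in at least 1 window, or 23.3% of 32851 windows of the same length. *Fcgr3* has 2 windows, and in the second the box stood at -15 to -10. It was not found in the windows of *Fcgr2b*, *Fcer1g* and *Fcgrt*, which says only that these letters were not there. The motif was chosen with these sequences in view, a match is no evidence of binding, and the RefSeq start of *Fcgr3* lies inside the longer GENCODE gene.

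Reads of *Fcgr3* and *Fcgr2b* can be mistaken for each other. Of the 50-base stretches of the longest *Fcgr3* transcript, 12.8% were identical in *Fcgr2b*. Of those of *Fcgr2b* 11.4% were found in other genes, in *Fcgr3* (166) and also in *Olfr1039* (150), *Ntrk3* (143) and *Gm35909* (96). *Fcgr1*, *Fcgr4*, *Fcer1g*, *Fcer1a* and *Fcgrt* shared 0 with any other annotated gene. How multiply mapped reads were counted is not given in the sources used here. *Mir6546*, *Gm26110* and the antisense *Gm38204*, which overlap *Fcgr3*, *Fcgr4* and *Fcgr2b*, had at most 6 reads in any library. The libraries do not keep strand, so reads of the antisense *Gm45669* and of *Fcgrt* cannot be told apart.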

How the data were processed

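Total RNA of sorted cells was converted to cDNA with the SMART-Seq v4 kit, and the paired reads were aligned to GRCm38 with HISAT2 version 2.1, per the study's methods; the program that counted reads is not given in the sources used here, and the submitters' processing notes name FastQC. The authors deposited raw counts per gene. They also deposited normalized values, a signal on a linear scale (normalized count), in which multiplying by a size factor of 0.825 to 1.16 per library gave whole reads for 100% of values within 0.01, equal to the counts. The methods describe a variance stabilizing transformation, which these values do not show. No columns of per-sample values were left unused, and 0 rows lacked a gene name.

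The 7 members were found by symbol, which matched 1 gene each, and groups were taken from the labels. Counts were tested with edgeR 4.0.16 (quasi-likelihood F test, TMM factors, filterByExpr, 1 mean per group over all 12 libraries, Benjamini-Hochberg over 17418 genes) in R 4.3.3. SE is the absolute log2 fold change divided by the square root of the F quantile of its p. RPKM used the union of GENCODE M21 exons, which may not be the annotation the authors used. CPM and log2 CPM (prior count 2) were computed from the counts, and RPKM from the CPM. Ratios were tested with two-sided exact permutation tests (scipy 1.17.1). Similar genes were sought at a mean of 3 log2 CPM or more. Promoters came from RefSeq, where all 7 members matched.

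Alternatives were size factors, DESeq2 1.42.0, limma 3.58.1, other filters, only the 2 groups compared, a replicate block, a fold above 2 and leaving out each library. The count test on the recovered whole reads, added after seeing the data, called 11838 genes with bleo in *WT*, 10852 in *Pear1*-/-, 8012 between the bleo groups and 784 between the vehicle groups, as on the counts. List calls and *WT* vehicle levels without 1 library were also added after seeing the data. The code was tested on simulated data. The members and lists were chosen with earlier results of these data known. Named genes are all members, the called genes with the 2 largest positive and 2 largest negative log2 fold changes of each pathway list (all where 4 or fewer were called), marker genes beside a result they stand with, and the 3 most similar genes of each member; some genes that this rule names are not reported here.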

Additional observations from a re-analysis of the deposited data

Results flagged for a closer look

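The bleo effect differed between the genotypes for 6 of the 7 Fc receptor genes by the interaction term of edgeR's test. On the log2 scale it was smaller in *Pear1*-/- cells than in *WT* cells with a difference of -2.29 for *Fcgr4*, -1.55 for *Fcer1g*, -1.48 for *Fcgr3*, -1.0 for *Fcgr1* and -0.96 for *Fcgr2b*. For *Fcgrt* the difference was -0.44, with a fall in *Pear1*-/- cells and no call in *WT* cells. All 6 were also called under each alternative tried except the fold criterion, with adjusted p of at most 0.0108.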

How the results depend on the processing

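Counts of members called were within 1.5 times the reported value in 81 of 85 alternatives. A fold above 2 as a further criterion left 4 of 7 members called between the bleo groups and 3 in the interaction. Between the vehicle groups 0 were called, but 2 without the filter on low counts, and leaving out 1 library gave between 0 and 5. Leaving out 1 library gave 6 to 7 with bleo in *WT*, 5 to 6 with bleo in *Pear1*-/-, 7 between the bleo groups and 6 in the interaction. The near-zero change of *Fcgrt* with bleo in *WT* was -0.01 with RLE factors, with DESeq2 and in the fit of only 2 groups, -0.02 without *WT* vehicle replicate 3 and 0.13 without replicate 2. Between the vehicle groups *Fcgr2b* lay between -0.04 and 0.16 and *Fcer1a* between -0.25 and 0.02 when 1 library was left out. The cause of these changes was not tested.

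With the sum of 8 leukocyte genes in place of *Ptprc*, the log2 ratio moved for all members. With bleo in *WT* it was 2.781 for *Fcgr1*, 1.747 for *Fcgr3*, 1.118 for *Fcgr4*, 1.665 for *Fcgr2b*, 1.228 for *Fcer1g*, -0.52 for *Fcer1a* and -1.601 for *Fcgrt*. In *Pear1*-/- it was 3.03, 1.498, 0.073, 1.952, 0.916, -0.103 (a change of sign) and -0.787 in the same order. Between the bleo groups it was -0.292, -0.309, -1.198, -0.017 (a change of sign), -0.395, -0.044 (a change of sign) and 0.581.

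The replicate numbers did not pair the libraries: the correlations of same-numbered libraries' deviations from their group means were between -0.161 and 0.1. With a replicate block the counts of members called were unchanged at 6, 6, 7, 0 and 6, and all genes called were 11685 with bleo in *WT*, 10688 in *Pear1*-/-, 7789 between the bleo groups, 703 between the vehicle groups and 6147 in the interaction. Over all genes the vehicle comparison gave 784 calls, but 11258 without *WT* vehicle replicate 2, 0 without any other vehicle library (2955 to 5868 with an unadjusted p under 0.05), 1484 with DESeq2, 0 with limma-voom (5236 with an unadjusted p under 0.05), 1099 with limma on normalized values, 5638 without the filter and 0 in the fit of 2 groups (3091 with an unadjusted p under 0.05). Without the filter 19438 genes were called with bleo in *WT*. At the depth of these libraries *Fcer1a*, with 11 to 36 reads, was the member with the largest counting error.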
